A study of Mus musculus with 18 samples.

Results

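The small leucine-rich proteoglycans (SLRPs) were examined in RNA-seq data of the mouse retinal pigment epithelium (RPE). The 10 genes were chosen by symbol, as the SLRPs of the eye wall: *Dcn*, *Bgn*, *Aspn*, *Lum*, *Fmod*, *Prelp*, *Kera*, *Omd*, *Ogn* and *Optc*. They were 10 of the 52636 genes in the count table, and each symbol matched 1 gene. The study asked how SREBP2, a transcription factor of cholesterol synthesis and uptake, and the lipoprotein receptor gene *Lrp2* act in the RPE on the size of the postnatal eye. It comprised 18 libraries in 6 groups of 3, each made from both eyes of 1 C57BL/6 mouse at postnatal day 14. Uninjected eyes formed 1 group, and the other 5 groups had received a subretinal AAV8 vector with the *Best1* promoter at postnatal day 0, at 1e+09 vector genomes per eye. The vector carried GFP, nSrebp2, a hairpin against LacZ (ctrl sh) or either of 2 hairpins against *Lrp2* (*Lrp2* sh1 and *Lrp2* sh2). nSREBP2, for which GFP was the control, is the active fragment of SREBP2 that enters the nucleus. The *Best1* promoter directs the transgene or hairpin to the RPE, so other cells of the eye wall were not the intended targets of the vectors. RPE cells were loosened from the sclera with papain after the retina and optic nerve had been removed, and RNA of scleral and choroidal cells can therefore be present. The labels give retinal as the tissue.

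SLRPs are secreted proteins with a small core of leucine-rich repeats, most of which carry sulfated sugar chains. They bind collagen and set the diameter and spacing of its fibrils, and several of them also bind TGFβ family growth factors. In the eye most of them are made chiefly by fibroblasts of the sclera and keratocytes of the cornea rather than by pigmented epithelium. Several SLRPs have been tied to eye length and to the structure of the sclera. They are grouped by sequence into classes. Class I holds decorin (*Dcn*) and biglycan (*Bgn*), which carry chondroitin or dermatan sulfate, and asporin (*Aspn*). Class II holds lumican (*Lum*), fibromodulin (*Fmod*), keratocan (*Kera*), PRELP (*Prelp*) and osteomodulin (*Omd*), several of which carry keratan sulfate. Class III holds osteoglycin (*Ogn*, also called mimecan) and opticin (*Optc*), a protein of the vitreous.

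The 10 genes lie in 3 clusters and at 1 single locus in GRCm38. On chromosome 10, *Dcn*, *Lum* and *Kera* follow each other on the plus strand, with 46984 bases between *Dcn* and *Lum* and 34175 between *Lum* and *Kera*. On chromosome 13, *Aspn*, *Omd* and *Ogn* lie on the plus strand with gaps of 14896 and 15223 bases. On chromosome 1, *Optc* and *Prelp* lie 2304 bases apart on the minus strand, and *Fmod* starts 115839 bases further on the plus strand. *Bgn* lies on chromosome X. In the GENCODE M21 annotation 350 exon bases of *Prelp* are shared with *Gm15851* on the other strand and 7 of *Aspn* with *Cenpp*, and the use of strand in counting was not given, so these counts are uncertain to that extent.

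The sequences before the transcription start are shown for *Bgn* and *Fmod*, which rose with nSREBP2, and for *Omd* and *Ogn*, which did not, so that the letters can be set beside the expression values. RefSeq start windows (GRCm38.p6) were given for 8 of the 10 genes, and the lines print the 250 bases 5′ to 3′ before each start, all on the plus strand. Capitals mark matches on either strand to CACGTG (E-box), GTGGGG (SRE-like), GGGCGG (GC box), TATAAA and CCAAT, of which the first 2 are letters that SREBP proteins are known to bind.
Bgn, chrX:73483351-73483600: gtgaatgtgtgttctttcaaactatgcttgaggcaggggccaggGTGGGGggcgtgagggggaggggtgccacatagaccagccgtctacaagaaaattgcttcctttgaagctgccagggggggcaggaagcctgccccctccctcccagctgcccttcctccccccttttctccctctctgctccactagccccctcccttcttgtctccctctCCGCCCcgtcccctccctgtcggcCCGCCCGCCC
Fmod, chr1:134037004-134037253: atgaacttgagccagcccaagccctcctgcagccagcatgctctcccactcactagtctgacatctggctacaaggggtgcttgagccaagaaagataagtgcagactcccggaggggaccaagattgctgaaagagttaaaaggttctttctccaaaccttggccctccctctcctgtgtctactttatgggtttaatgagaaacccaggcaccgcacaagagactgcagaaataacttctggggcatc
Omd, chr13:49582212-49582461: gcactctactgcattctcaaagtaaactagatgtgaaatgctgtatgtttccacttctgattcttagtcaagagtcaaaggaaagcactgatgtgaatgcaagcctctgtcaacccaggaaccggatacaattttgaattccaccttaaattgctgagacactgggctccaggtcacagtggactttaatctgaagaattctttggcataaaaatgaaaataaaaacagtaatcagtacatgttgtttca
Ogn, chr13:49607765-49608014: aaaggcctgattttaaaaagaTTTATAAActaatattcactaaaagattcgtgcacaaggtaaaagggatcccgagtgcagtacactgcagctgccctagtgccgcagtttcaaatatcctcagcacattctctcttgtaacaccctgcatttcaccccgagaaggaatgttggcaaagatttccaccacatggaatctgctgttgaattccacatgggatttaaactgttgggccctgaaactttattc
The *Bgn* window held GTGGGG starting 206 bases before the start and GGGCGG on the other strand at 34, 10 and 6 bases, the last 2 of which overlap. No match was found in the *Fmod* or *Omd* window. In the *Ogn* window TATAAA matched on both strands, at 227 and 229 bases, and these matches overlap. CACGTG was in none of the 8 windows, and it was in 6.0% of 32851 promoters of the same length. GTGGGG was in 2 of the 8 (*Bgn* and *Prelp*), against 25.5% of promoters. GGGCGG was in 32.7% of promoters, TATAAA in 12.4% and CCAAT in 33.8%. These matches describe the letters and are not binding sites that were measured.

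Each gene was detected in each of the 18 libraries, and together they held 0.35 to 0.73% of the reads counted on genes. Levels are CPM (counts per 1e+06 counts, scaled by TMM), and genes were compared with each other only as CPM per kilobase of exon. By the median over the libraries per kilobase, *Dcn* was at 258, *Fmod* at 235, *Bgn* at 215 and *Lum* at 147 CPM/kb. The ranges of these 4 genes over the libraries overlapped (179 to 401, 124 to 435, 152 to 410 and 106 to 280 CPM/kb), so their order was not separated. *Ogn* (median 78.5, range 60.2 to 101 CPM/kb) and *Prelp* (73.5, range 54.0 to 86.3 CPM/kb) formed the next pair and also overlapped. *Ogn* lay below *Lum* without overlap. *Aspn* was at 45.0 CPM/kb (37.8 to 64.3), overlapping *Prelp*. *Kera*, at 18.8 CPM/kb (3.78 to 33.1), lay below *Aspn* without overlap, *Omd* was at 8.56 CPM/kb (5.21 to 13.1) and *Optc* at 2.59 CPM/kb (0.564 to 46.1), and the ranges of these last 3 genes overlapped.

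**Figure D1:**
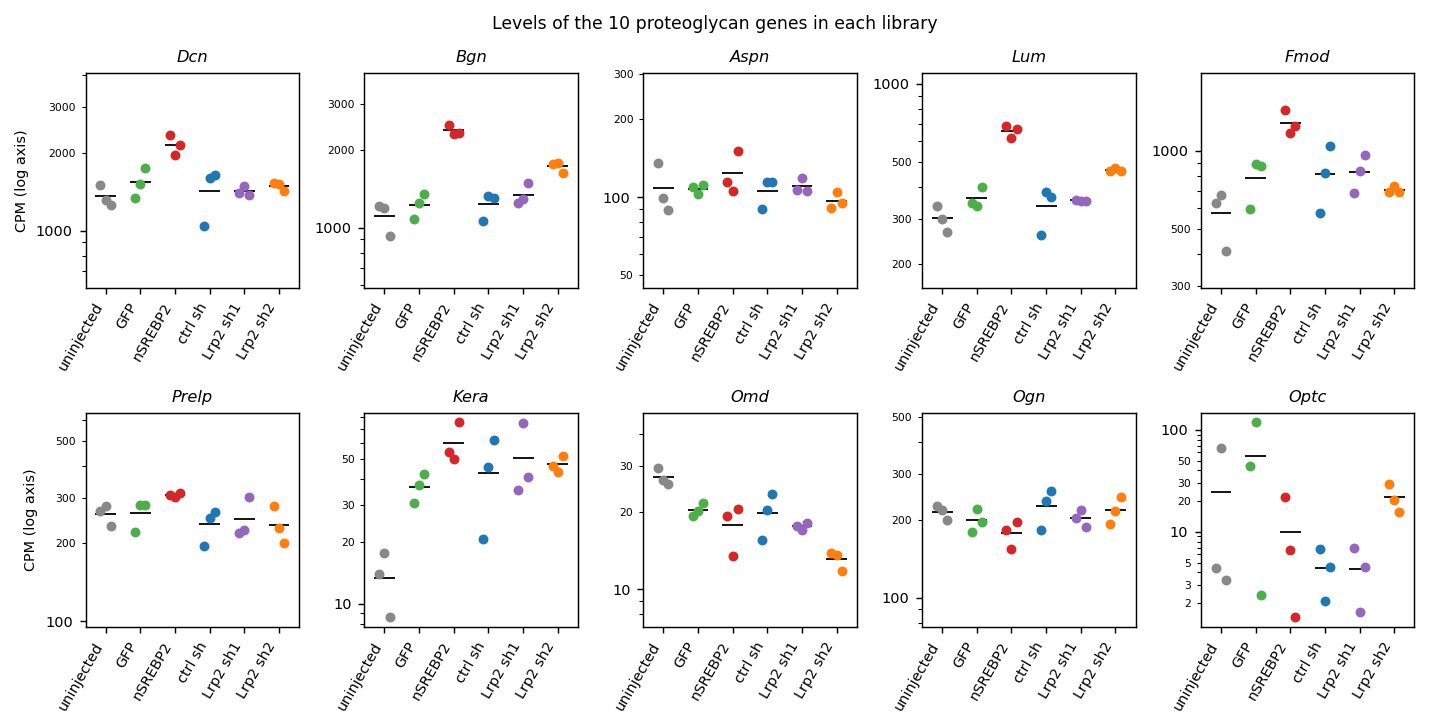
CPM (log axis) of each SLRP gene in the 18 libraries, with 3 points per group and the mean as a bar. *Dcn*, *Bgn*, *Lum* and *Fmod* were higher in the 3 nSREBP2 libraries than in each of the other 15, *Kera* was lowest in the uninjected libraries, and *Optc* ranged from 1.45 to 119 CPM.

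Depth was 8921885 to 13696934 counts per library. *Srebf2*, the gene of SREBP2, was at 208 to 233 CPM with nSREBP2 and 82.9 to 121 CPM in the other libraries, and *Lrp2* was at 29.8 to 43.6 CPM with the hairpins and 87.6 to 166 CPM with ctrl sh. *Lrp2* was also low with nSREBP2, at 25.2 to 37.7 CPM against 87.8 to 175 CPM with GFP. The RPE marker *Rpe65* was at 376 to 1127 CPM in uninjected eyes and at 1.06 to 97.0 CPM in the 15 injected libraries, so the label RPE was not matched by this marker after injection. The summed 10 RPE markers were at 2202 to 5672 CPM in the injected libraries and at 4358 to 10774 CPM in uninjected eyes. The fibroblast marker *Pdgfra* was at 297 to 506 CPM and *Col1a1* at 7953 to 45379 CPM over the 18 libraries, and the sum of 15 fibroblast markers, none of them an SLRP, was at 19607 to 87765 CPM. In bulk RNA, more cells of a type and more RNA per cell cannot be told apart. Counts of Y-linked genes were present in the 3 nSREBP2 libraries, in uninjected replicate 3 and in *Lrp2* sh2 replicates 2 and 3, and nearly absent in the other 12, so sex and group cannot be told apart within nSREBP2 versus GFP. Cornea markers summed to 1527 CPM in nSREBP2 replicate 3 and 893 CPM in *Lrp2* sh2 replicate 3, against at most 423 CPM elsewhere.

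Overexpression of nSREBP2 was compared with GFP to find what changes with the active factor in the RPE. Of the 10 SLRP genes, 5 rose (*Bgn*, *Lum*, *Fmod*, *Kera* and *Dcn*), none fell, and 5 did not pass the test, which was an adjusted *P* under 0.05 in edgeR's quasi-likelihood test. Of all 17927 genes tested, 21% passed in either direction, 12.6% higher and 8.47% lower. The median log2 fold change (log2FC) of the 10 genes was 0.36, against -0.02 over all genes tested.

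Among the class I genes, *Bgn* had the largest rise. Its level was 1083, 1242 and 1347 CPM in the GFP libraries and 2499, 2302 and 2330 CPM with nSREBP2. The groups did not overlap, and the difference was a log2FC of 0.96 ± 0.09 (SE), or 1.94-fold, with an adjusted *P* of 9.76e-05. *Dcn* was at 1342, 1515 and 1750 CPM with GFP and at 2339, 1961 and 2148 CPM with nSREBP2. These groups also stood apart, with a log2FC of 0.48 ± 0.11 and an adjusted *P* of 0.0105. *Aspn*, whose protein competes with decorin for collagen, overlapped between the groups, at 109, 103 and 111 CPM against 115, 106 and 151 CPM. Its log2FC was 0.20 ± 0.12, with an adjusted *P* of 0.28.

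Of the class II genes, *Lum*, *Fmod* and *Kera* rose. *Lum*, needed for regular fibrils in the cornea and sclera, was at 347, 336 and 400 CPM with GFP and at 686, 615 and 670 CPM with nSREBP2. Each nSREBP2 library was well above each GFP library, and the log2FC was 0.86 ± 0.08 with an adjusted *P* of 0.000103. *Fmod*, which binds the same collagen site as lumican, was at 597, 890 and 873 CPM with GFP and at 1438, 1169 and 1247 CPM with nSREBP2. GFP replicate 1 was the lowest of the 6, the groups did not overlap, and the log2FC was 0.71 ± 0.14 with an adjusted *P* of 0.00712. *Kera*, known from the corneal stroma, was at 30.6, 37.5 and 42.3 CPM with GFP and at 54.5, 50.3 and 75.5 CPM with nSREBP2. The highest level was in replicate 3, the library with the high sum of cornea markers. The log2FC of *Kera* was 0.70 ± 0.16 with an adjusted *P* of 0.0120, and without that library it was 0.51 with an adjusted *P* of 0.0231.

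The other class II genes did not pass. *Prelp*, whose protein anchors basement membranes to the tissue below, was at 221, 281 and 281 CPM with GFP and at 309, 302 and 312 CPM with nSREBP2. The groups did not overlap, but the log2FC was only 0.24 ± 0.09 with an adjusted *P* of 0.104. *Omd*, best known from bone matrix, was at 19.3, 20.2 and 21.5 CPM with GFP and at 19.2, 13.5 and 20.4 CPM with nSREBP2, which overlapped (log2FC -0.20 ± 0.15, adjusted *P* 0.394).

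The class III genes did not pass either. *Ogn*, a gene of the sclera and cornea, was at 180, 220 and 197 CPM with GFP and 183, 154 and 196 CPM with nSREBP2 (log2FC -0.16 ± 0.10, adjusted *P* 0.31). *Optc* was at 44.3, 119 and 2.41 CPM with GFP and 22.0, 6.58 and 1.45 CPM with nSREBP2. The spread within each group exceeded 10-fold, so that a log2FC of -2.46 ± 1.05 came with an adjusted *P* of 0.133. The call depended on the setting, since the adjusted *P* was 0.0104 without GFP replicate 3, 0.0340 with a replicate block and 0.00191 without a filter on low counts. The summed markers of the ciliary body and vitreous matrix, the region where opticin is made, were also uneven, at 330 CPM in GFP replicate 2 and 80.7 CPM in GFP replicate 3, and their part in the *Optc* values was not tested.

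The calls for *Dcn* and *Kera* were the less firm ones. The adjusted *P* of *Dcn* was 0.0552 without GFP replicate 2, and that of *Kera* was 0.0553 without GFP replicate 1 and 0.134 when the 18 libraries were fitted together. In a model of the 18 libraries that also held sex, *Bgn* (log2FC 1.16), *Lum* (0.98) and *Fmod* (1.02) kept an adjusted *P* under 0.05, and *Dcn* (0.59, adjusted *P* 0.0642) and *Kera* (1.0, adjusted *P* 0.237) did not. Sex did not vary within nSREBP2 or within GFP, so its term came from the uninjected and *Lrp2* sh2 libraries. The only uninjected library with Y-linked counts also had the lowest sum of fibroblast markers of the 18. This fit therefore cannot tell sex and group apart within nSREBP2 versus GFP either.

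**Figure D2:**
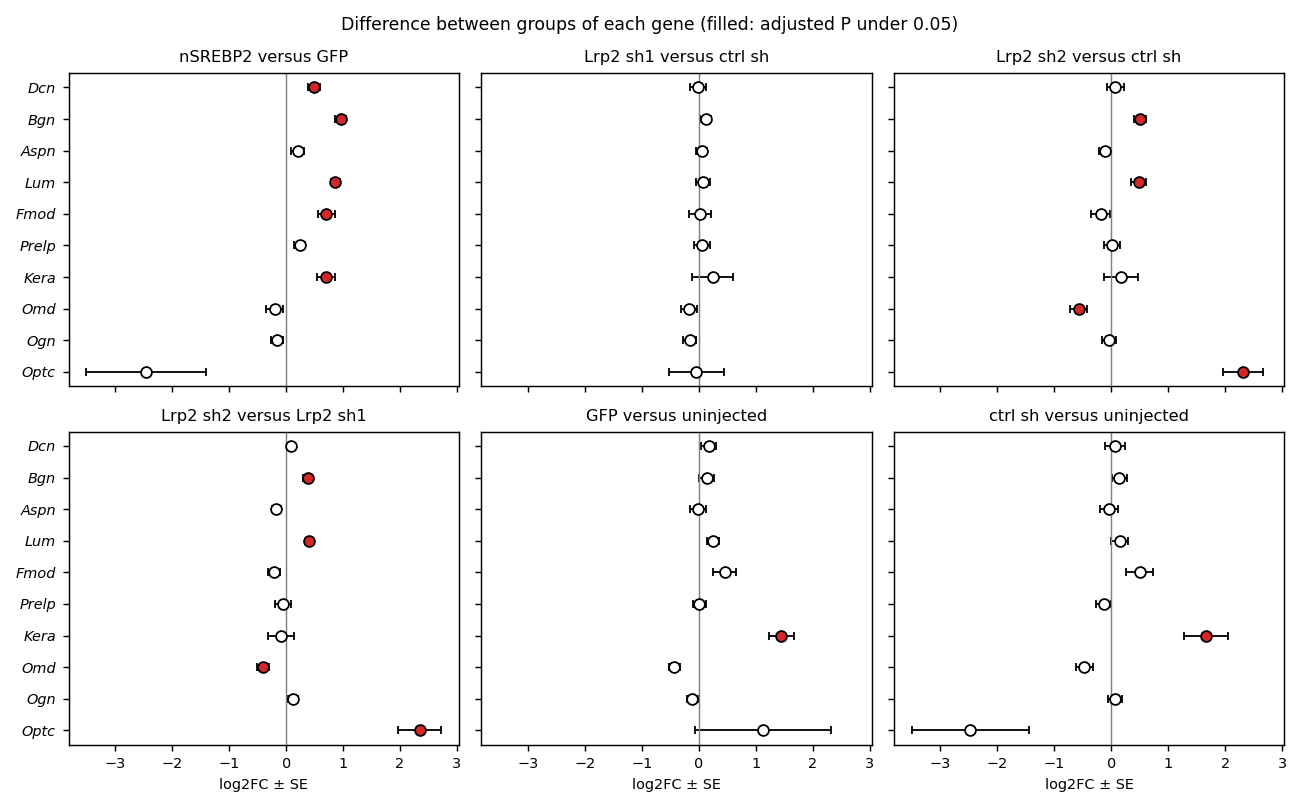
log2FC ± SE of the 10 SLRP genes in 6 comparisons, with filled points for an adjusted *P* under 0.05. With nSREBP2, 5 points lie filled on the right, with *Lrp2* sh1 none is filled, and with *Lrp2* sh2 *Bgn*, *Lum* and *Optc* lie to the right and *Omd* to the left.

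The hairpins against *Lrp2* were compared with ctrl sh to ask what follows from less of this receptor, and both comparisons share the 3 ctrl sh libraries. With *Lrp2* sh1, 0 of the 10 genes passed edgeR's test, against 5.33% of the 17801 genes tested, and neither edgeR nor DESeq2 gave any of them an unadjusted *P* under 0.05. Their log2FC lay between -0.17 and 0.24, with a median of 0.04 against -0.01 over all genes. *Lum* was at 355, 353 and 353 CPM with *Lrp2* sh1 and at 260, 382 and 366 CPM with ctrl sh, so that ctrl sh replicate 1 was lower and the others higher. *Bgn* was at 1243, 1295 and 1485 CPM against 1062, 1321 and 1307 CPM, with a log2FC of 0.12 ± 0.10 and an adjusted *P* of 0.584. *Dcn* (1403, 1488 and 1376 CPM) lay within the range of ctrl sh (1044, 1603 and 1640 CPM). *Fmod* (686, 833 and 961 CPM) also lay within the range of ctrl sh (574, 819 and 1044 CPM). *Kera* spread from 35.5 CPM in replicate 1 to 75.1 CPM in replicate 2, with 41.1 CPM in replicate 3, against 20.6, 46.0 and 61.6 CPM with ctrl sh (log2FC 0.24 ± 0.37). The spread of *Kera* within either group was thus larger than the difference between them.

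With *Lrp2* sh2, 4 of the 10 genes passed, 3 higher and 1 lower, against 18.1% of the 18089 genes tested (8.59% higher and 9.48% lower). Their median log2FC was 0.04, against 0.01 over all genes. *Bgn* was at 1770, 1778 and 1633 CPM, above each ctrl sh library, with a log2FC of 0.50 ± 0.10 and an adjusted *P* of 0.00801. *Lum* was at 461, 472 and 458 CPM, again above each ctrl sh library, with a log2FC of 0.48 ± 0.13 and an adjusted *P* of 0.0288. *Omd* was at 13.9, 13.6 and 11.7 CPM against 15.5, 20.4 and 23.3 CPM, and fell by 0.58 ± 0.16 on the log2 scale with an adjusted *P* of 0.0321. *Optc* was at 29.7, 20.6 and 15.7 CPM against 6.76, 2.11 and 4.48 CPM. These *Optc* groups did not overlap, with a log2FC of 2.31 ± 0.35 and an adjusted *P* of 0.00221, although uninjected and GFP libraries reached 66.5 and 119 CPM.

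The other 6 genes did not pass with *Lrp2* sh2. *Dcn* (1530, 1516 and 1421 CPM), *Fmod* (695, 732 and 692 CPM) and *Kera* (46.2, 43.6 and 51.6 CPM) lay within the ctrl sh range, and their log2FC was 0.07, -0.19 and 0.16. *Aspn* was at 91.0, 105 and 95.1 CPM against 89.6, 114 and 114 CPM, a log2FC of -0.11 ± 0.10. *Prelp* was at 279, 230 and 201 CPM against 195, 250 and 265 CPM, and *Ogn* at 193, 216 and 246 CPM against 183, 237 and 259 CPM, so both groups covered nearly the same range. The call for *Lum* was lost without ctrl sh replicate 3 or without any 1 of the *Lrp2* sh2 libraries, with an adjusted *P* of 0.0567 to 0.0906. The call for *Omd* was lost without ctrl sh replicate 2 or 3 or any 1 of the *Lrp2* sh2 libraries (0.0557 to 0.119), with a replicate block (0.0734) and with sex in the model (0.0865). *Optc* did not pass when the 18 libraries were fitted together (adjusted *P* 0.187) or with sex in the model (0.12).

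Between the hairpins, *Lrp2* sh2 differed from *Lrp2* sh1 in the same 4 genes. *Bgn* was 0.38 ± 0.08 higher on the log2 scale with an adjusted *P* of 0.00703, and *Lum* was 0.40 ± 0.05 higher with an adjusted *P* of 0.000482. *Omd* was at 17.6, 16.9 and 18.1 CPM with *Lrp2* sh1 and lower in each *Lrp2* sh2 library (log2FC -0.41 ± 0.11, adjusted *P* 0.0242). *Optc* was at 6.91, 1.65 and 4.52 CPM with *Lrp2* sh1, and its log2FC was 2.35 ± 0.38 with an adjusted *P* of 0.00187. *Optc* did not pass in the fit of 18 libraries (adjusted *P* 0.184) or with sex in the model (0.112). *Omd* did not pass in these fits (0.0613 and 0.272), in DESeq2 (0.0547), without any 1 of the *Lrp2* sh1 libraries or without *Lrp2* sh2 replicate 3 (0.0562 to 0.068). This comparison had 22.4% of all genes past the test (10.2% higher and 12.3% lower), more than either hairpin against ctrl sh. Rod photoreceptor markers also differed with *Lrp2* sh2, with 8 of 10 higher than in ctrl sh and sums of 72.7 to 394 CPM against 42.5 to 63.8 CPM. Endothelial markers were lower in 7 of 9, with sums of 1797 to 2001 against 2660 to 2794 CPM, and macrophage markers higher in 1 of 8, with sums of 440 to 535 against 401 to 425 CPM. Against *Lrp2* sh1, 8 of 10 rod and 6 of 8 macrophage markers were higher with *Lrp2* sh2 and none lower. In the same comparison 8 of 9 endothelial and 6 of 10 RPE markers were lower and none higher. The part of these cells in the SLRP values was not tested.

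Most of these SLRP differences were under 1 on the log2 scale. With an absolute log2FC above 1 required as well, 0 of the 10 genes passed with nSREBP2 (6.67% of all genes), and only *Optc* passed with *Lrp2* sh2 (4.76% of all genes) and between the hairpins (5.13% of all genes). The effects were also compared with each other in the 18 libraries fitted together. The effect of nSREBP2 exceeded that of *Lrp2* sh1 for *Bgn* and *Lum*, 2 of the 10 genes against 9.75% of 19744 genes. It did not differ past the test from that of *Lrp2* sh2 for any of the 10, against 5.63% of genes, and the difference for *Bgn* was 0.46 ± 0.15.

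The controls were compared with uninjected eyes to show what the injection and vector did without nSREBP2 or an *Lrp2* hairpin, and these comparisons share the uninjected libraries. *Kera* rose in both. It was at 13.9, 17.5 and 8.61 CPM in uninjected eyes, below each of the 15 injected libraries, the lowest of which was at 20.6 CPM. For GFP the log2FC of *Kera* was 1.45 ± 0.22 with an adjusted *P* of 0.0149, and it was the only 1 of the 10 genes past the test, against 2.48% of 17837 genes (0.662% higher). For ctrl sh it was 1.66 ± 0.38 with an adjusted *P* of 0.0397, again alone among the 10, against 6.49% of 17822 genes (3.13% higher). Without GFP replicate 2 the adjusted *P* was 0.0801, and for ctrl sh it was 0.0562 to 0.135 without any 1 of the uninjected libraries or without ctrl sh replicate 2 or 3. Of the 10 RPE markers, 6 were lower and 0 higher for GFP (median log2FC -2.51). For ctrl sh 0 of the 10 RPE markers passed, with a median log2FC of -1.32. The part of RPE content in the SLRP values was not tested.

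*Omd* was highest in uninjected eyes, at 29.5, 26.5 and 25.6 CPM, and each of the 15 injected libraries was lower, at 11.7 to 23.3 CPM. Its log2FC was -0.43 ± 0.10 for GFP and -0.48 ± 0.15 for ctrl sh, and neither passed (adjusted *P* 0.0679 and 0.0956). *Kera* and *Omd* thus lay on opposite sides of the injected libraries, without overlap, in these 3 uninjected eyes. The other genes of uninjected eyes overlapped with GFP. *Dcn* was at 1500, 1314 and 1253 CPM, *Bgn* at 1212, 1188 and 928 CPM, *Lum* at 338, 300 and 268 CPM and *Fmod* at 630, 676 and 410 CPM. Replicate 3 was the lowest uninjected library for these 4 genes, and it also had the lowest sum of fibroblast markers of the 18 libraries. *Aspn* was at 136, 99.2 and 89.0 CPM, *Prelp* at 266, 278 and 233 CPM, and *Ogn* at 226, 218 and 199 CPM. *Optc* was at 4.40, 66.5 and 3.38 CPM, and the library with 66.5 CPM also had the highest sum of ciliary and vitreous markers, 535 CPM. Other libraries did not follow this order. The sum was 428 CPM in ctrl sh replicate 1, where *Optc* was at 6.76 CPM, and 326 CPM in uninjected replicate 3. With *Lrp2* sh2, where *Optc* was higher than with ctrl sh, the sums were 115 to 166 CPM against 176 to 428 CPM. The relation was not tested.

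The calls were also set beside the positions of the genes, and differences between neighbors were not tested. On chromosome 10, *Dcn*, *Lum* and *Kera* each rose with nSREBP2, but with *Lrp2* sh2 only *Lum* passed and with the control vectors only *Kera*. On chromosome 1, *Fmod* rose with nSREBP2 while *Prelp* and *Optc* did not pass, and with *Lrp2* sh2 *Optc* rose while *Prelp*, 2304 bases away, was at a log2FC of 0.01. On chromosome 13 no gene passed with nSREBP2. *Omd* fell with *Lrp2* sh2, between *Aspn* at -0.11 and *Ogn* at -0.04.

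**Figure D3:**
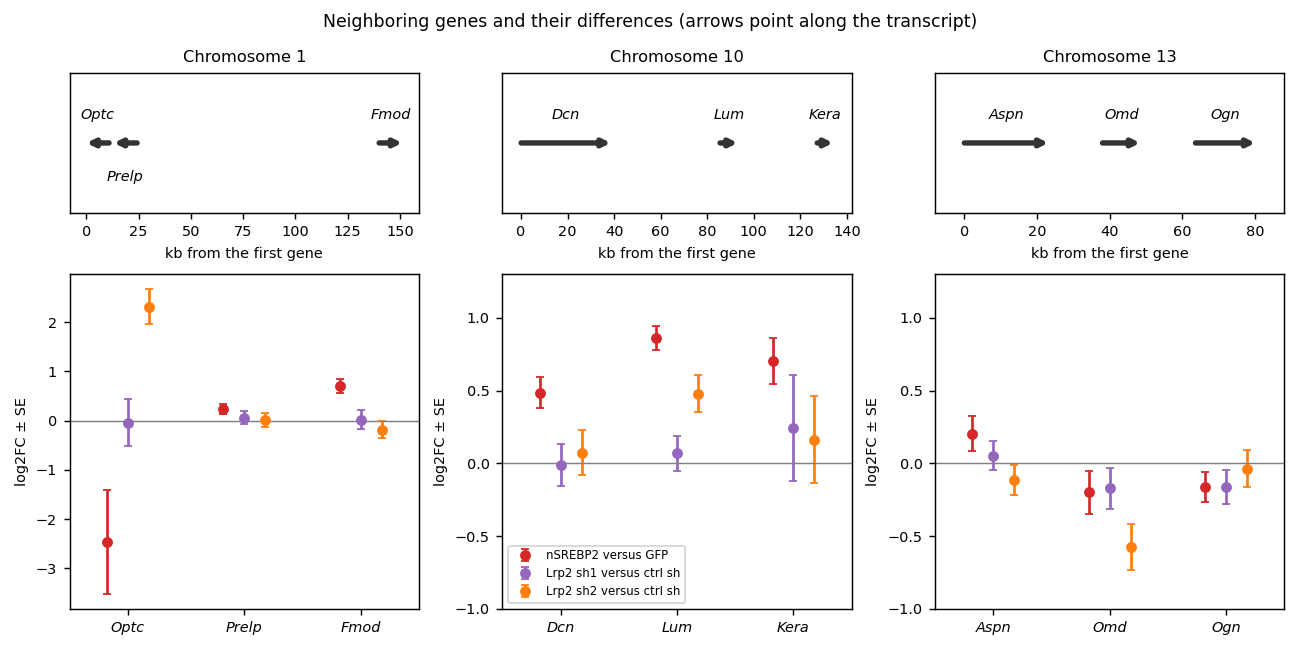
Position of the SLRP genes of chromosomes 1, 10 and 13 (kb from the start of the first gene, arrows along the transcript), above their log2FC ± SE with nSREBP2, *Lrp2* sh1 and *Lrp2* sh2. The axis of chromosome 1 is wider because *Optc* spans -2.46 to 2.31, and the nSREBP2 values of chromosome 10 lie between 0.48 and 0.86.

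The family shares its setting with collagens, fibroblast markers and the enzymes of its chains. With nSREBP2, 12.6% of all genes tested were higher and 8.47% lower. Fibril collagens and their partners rose with nSREBP2 in 14 of 18 genes and fell in none, with a median log2FC of 0.81. The largest of these were *Fn1* (fibronectin) at 1.22, *Col6a3* at 1.16, *Col1a1* at 1.12 and *Col5a3* at 1.02. Of the 15 fibroblast markers, which share 4 genes with the collagen list, 12 rose and none fell (median 0.93), and their sum was 74366 to 87765 CPM with nSREBP2 against 35859 to 45067 CPM with GFP. Macrophage markers rose in 7 of 8 genes, endothelial markers fell in 6 of 9 and pericyte and smooth muscle markers fell in 4 of 6, and the part of cell composition in the SLRP values was not tested. With *Lrp2* sh1, 0 of the 18 collagens and partners passed edgeR's test (5 had an unadjusted *P* under 0.05) and 2 of the 15 fibroblast markers were lower. With *Lrp2* sh2, *Col3a1* (0.44) and *Col5a2* (0.39) were the 2 of 18 that passed, both higher, and 5 fibroblast markers were higher and 1 lower. Of all genes, 5.33% passed with *Lrp2* sh1, and 8.59% were higher and 9.48% lower with *Lrp2* sh2.

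Set against a sum of fibroblast markers, which was itself higher with nSREBP2, the SLRP genes differed among themselves. The sum of the 10 genes was 6680 to 7664 CPM with nSREBP2 and 3973 to 5025 CPM with GFP, and the summed 12 fibroblast markers other than collagens were at 6036 to 6332 CPM against 3450 to 3854 CPM. As a percent of the latter sum the 10 genes were at 111 to 127% with nSREBP2 and 109 to 138% with GFP, which overlapped. As a percent of all 15 markers, collagens included, they were at 8.70 to 8.98% against 11.1 to 11.9%, lower without overlap. Single genes were set only against the 12 markers without collagens. *Bgn* alone was at 36.8 to 41.4% against 29.8 to 36.0%, without overlap, and *Lum* at 10.2 to 11.4% against 9.55 to 10.4%, with overlap. *Dcn* was at 32.4 to 38.8% against 37.0 to 45.4% and *Fmod* at 19.3 to 23.8% against 16.5 to 25.8%, and both overlapped. *Kera*, at 0.83 to 1.19% against 0.84 to 1.10%, overlapped as well. *Ogn* was at 2.56 to 3.10% against 4.96 to 6.39%, *Omd* at 0.22 to 0.32% against 0.53 to 0.58%, *Aspn* at 1.75 to 2.39% against 2.88 to 3.0% and *Prelp* at 4.93 to 5.12% against 6.10 to 8.15%. Each of these last 4 ratios was lower in the 3 nSREBP2 libraries without overlap, whereas none of the 4 genes passed the test by its own level. A gene with an unchanged level is lower as a percent of a sum that rose. The largest part of this sum was *Fbn1*, at a mean of 3008 against 1575 CPM. *Lox* (784 against 328 CPM) and *Loxl1* (559 against 293 CPM) also rose, and *Pdgfra* less so (491 against 355 CPM). *Pdgfrb* (679 against 739 CPM), *Fap* (84.1 against 74.8 CPM) and *Twist2* did not pass. These ratios were chosen after the values were seen and were not tested.

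**Figure D4:**
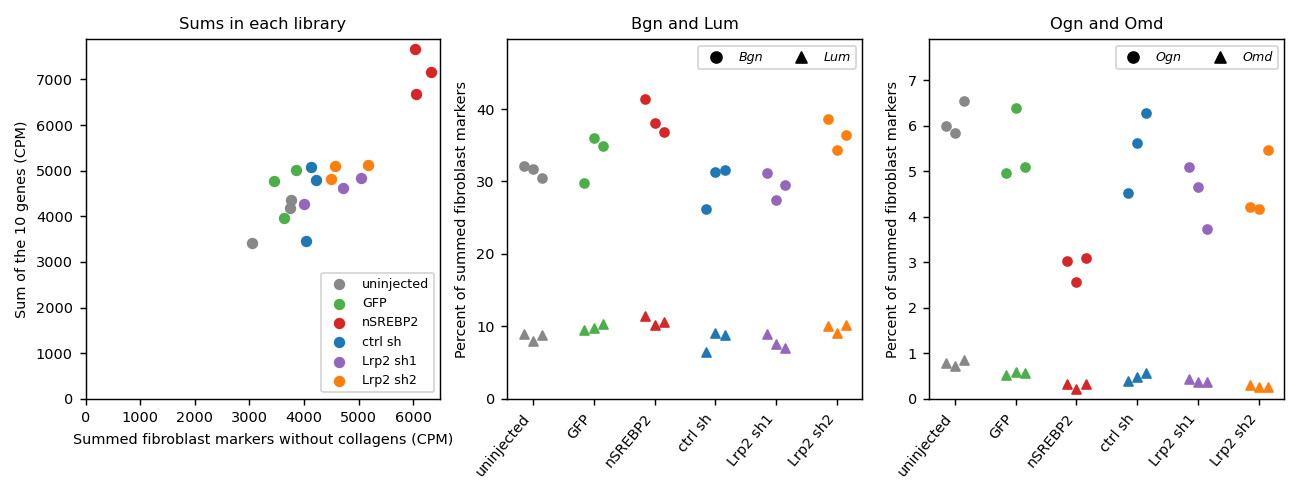
Left, the sum of the 10 SLRP genes against the sum of 12 fibroblast markers without collagens in each library (CPM). Middle and right, *Bgn*, *Lum*, *Ogn* and *Omd* as a percent of that marker sum by group, where *Bgn* was at 36.8 to 41.4% with nSREBP2 and *Ogn* at 2.56 to 3.10%.

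Other genes of the family were counted from a list of 8. With nSREBP2, 5 rose and none fell, with a median log2FC of 0.56, where 12.6% of all genes were higher and 8.47% lower. *Podnl1* (podocan-like protein) rose from 1.84 ± 0.70 to 6.93 ± 0.60 CPM (SD, n = 3, log2FC 1.92), *Epyc* (epiphycan) from 10.9 ± 1.8 to 22.1 ± 4.0 CPM (1.02), *Chad* (chondroadherin) from 172 ± 33 to 266 ± 31 CPM (0.63) and *Tsku* (tsukushi) from 31.8 ± 2.2 to 48.1 ± 6.8 CPM (0.60). With *Lrp2* sh2 only *Tsku* passed, at 46.1 ± 1.4 against 30.7 ± 2.6 CPM (0.60), and with *Lrp2* sh1 none of the 7 tested did (1 had an unadjusted *P* under 0.05 in edgeR). Of all genes, 18.1% passed with *Lrp2* sh2 and 5.33% with *Lrp2* sh1. *Chadl* was the 1 of 8 that passed for GFP against uninjected eyes (2.48% of all genes), and it was lower (-1.36).

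The sugar chains are built by a series of transferases. Of 22 tested genes for the linkage region and for chondroitin or dermatan sulfate, 5 rose and 3 fell with nSREBP2 (median log2FC 0.10), where 12.6% of all genes were higher and 8.47% lower. The chain polymerizing factor *Chpf* rose by 0.62 and the dermatan sulfate epimerase-like gene *Dsel* by 0.40, while the sulfotransferase *Chst15* fell by 0.52 on the log2 scale. With *Lrp2* sh2 none rose and 4 of 22 fell (9.48% of all genes were lower), namely *Csgalnact1* (-0.64), *Xylt1* (-0.64), *Chst15* (-0.54) and *Chpf2* (-0.39). *Xylt1* encodes a xylosyltransferase that starts the chain. With *Lrp2* sh1 *Chpf2* rose (0.44) and *Xylt1* fell (-0.36).

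Of 11 tested genes of keratan sulfate synthesis, 3 rose and 2 fell with nSREBP2, and 1 rose and 3 fell with *Lrp2* sh2. Of all genes, 12.6% were higher and 8.47% lower with nSREBP2, and 8.59% and 9.48% with *Lrp2* sh2. *Chst1*, the sulfotransferase that acts on galactose of keratan sulfate, was the one that rose in both. It went from 23.9 ± 1.2 to 61.5 ± 6.0 CPM with nSREBP2 (log2FC 1.36) and was at 51.0 ± 9.5 against 22.0 ± 2.2 CPM with *Lrp2* sh2 (1.23). *B4galt4*, a galactosyltransferase of the same chain, fell with both, by 0.57 and 0.88 on the log2 scale. *St3gal1* was higher with nSREBP2 (155 ± 11 against 97.3 ± 1.8 CPM, log2FC 0.67). With *Lrp2* sh2 it was lower, at 84.5 ± 4.3 against 144 ± 51 CPM (-0.75), and its spread within ctrl sh was wide.

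Proteases that mature or cleave SLRP core proteins were listed together with the procollagen protease enhancers *Pcolce* and *Pcolce2*. Of this list, 6 of 13 tested genes were higher with nSREBP2 and 5 of 12 with *Lrp2* sh2, against 12.6% and 8.59% of all genes. *Pcolce* (0.68) was among those higher with nSREBP2. The 1 lower gene in each comparison was *Pcolce2*, so no protease of the list was lower. *Bmp1*, the protease that removes the propeptide of biglycan, was at 240 ± 9 against 157 ± 4 CPM (log2FC 0.61) with nSREBP2. *Adamts5*, which cleaves proteoglycans, rose by 1.07 with nSREBP2 and by 0.59 with *Lrp2* sh2. *Htra1*, a secreted serine protease, was at 303 ± 22 against 147 ± 8 CPM with *Lrp2* sh2 (1.06). With *Lrp2* sh1 only *Pcolce2*, a procollagen protease enhancer, passed (0.78), and with *Lrp2* sh2 it was lower (-0.80).

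**Figure D5:**
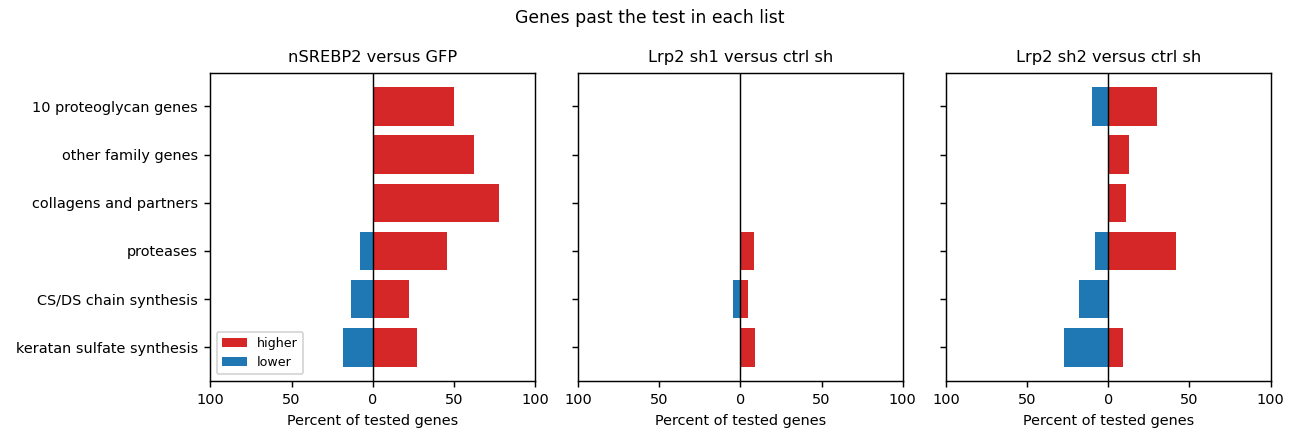
Percent of the tested genes of each list that were higher (right, red) or lower (left, blue) at an adjusted *P* under 0.05, for the 10 SLRP genes and 5 related lists. With nSREBP2 the bar of the collagens and partners stands for 14 of 18 genes and that of the 10 SLRP genes for 5, and with *Lrp2* sh1 the first 3 lists are at 0.

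The genes most alike to each SLRP were taken by Pearson's *r* of log2(CPM + 0.5) over the 18 libraries among 14197 other genes, as a description, since the libraries share their groups and their cell makeup. *Bgn* was closest to *Lox* (*r* = 0.98), the collagen cross-linking enzyme, *Tgfbi* (0.98) and *Cmklr1* (0.98). *Lum* was closest to *Pabpc4*, *Lox* and *Tgfbi* (0.96 to 0.97). *Fmod* went with the matrix genes *Matn4* (0.96), *Col16a1* (0.95) and *Col6a1* (0.95), *Dcn* with *Glt8d2* (0.95), *Fam46a* and *Boc* (both 0.93), and *Kera* with *Ssc5d*, *C1qtnf3* (both 0.94) and *Angptl1* (0.93). *Prelp* was closest to *Chad* (0.91), its relative in the same family, *Wipf1* and *Angptl7* (both 0.82). *Aspn* was closest to *Foxp1* (0.86), *Zeb1* (0.78) and *Frmd6* (0.76), *Omd* to *Prkch* (0.91), *Clic5* (0.90) and *Ncoa3* (0.89), and *Ogn* to *Cep76* (0.79) and *Pdzrn4* (0.75). *Optc* was closest to *Crhbp* (0.93), *Grin2b* (0.92) and *Ppm1h* (0.89).

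Within the family the highest *r* was that of *Bgn* and *Lum* (0.97), which lie on different chromosomes. *Dcn* and *Lum*, neighbors on chromosome 10, were at 0.89, and *Bgn* and *Omd* were at -0.45. After subtraction of the group means, which leaves the differences between mice of 1 group, *Dcn* and *Lum* were at 0.93, *Bgn* and *Fmod* at 0.91, and *Dcn* and *Omd*, at -0.01 before, at 0.78. *Bgn* and *Omd*, opposite across the groups, were at 0.59 among mice of the same group. *Optc* stayed apart from the other 9 genes, with *r* between -0.42 and 0.11 after subtraction of the group means.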

How the data were processed

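The authors used STAR for mapping to GRCm38 and for counting, and the deposited table holds raw counts, as whole numbers, for each gene and library. The annotation and the use of strand are not given in the sources used here. Groups came from the sample labels, and the label of the LacZ hairpin was taken as ctrl sh. Each comparison was fitted on its 2 groups with edgeR 4.0.16 (filterByExpr, TMM, glmQLFit, glmQLFTest) in R 4.3.3, and *P*-values were adjusted over all tested genes (Benjamini-Hochberg). The SE was the log2FC divided by the root of the F statistic. *P*-values measure the spread between mice, 1 library each.

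Depth was 8921885 to 13696934 counts per library, and a gene without reads can hide up to 3 counts (0.219 to 0.336 CPM, counting error only). The 1 row without a gene symbol was kept among the counts and in the library totals. No 2 replicates agreed within sampling noise. Levels are CPM with TMM factors over the 18 libraries, and lengths are merged exons of GENCODE M21, with positions from the same annotation. Promoter windows came from RefSeq and were searched for short letter matches.

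The named genes were the 10 members, up to 4 genes of each list with the largest absolute log2FC among those past the test at an average log2 CPM of at least 1, the 3 genes most alike to each member, *Srebf2* and *Lrp2*. One of the genes alike to a member is not reported here. The marker lists (fibroblast, tendon and cartilage, cornea, ciliary and vitreous matrix, RPE, rod photoreceptor, melanocyte, endothelium, pericyte and smooth muscle, macrophage, muscle, blood and sex) describe other cells. The members and lists were chosen with earlier results of these data known. Alternatives were the use of DESeq2 1.42.0, edgeR with DESeq2 size factors or library totals, no filter, at least 10 counts in every library, the 18 libraries in one fit, a replicate block, sex as a term, uninjected controls, an absolute log2FC above 1 and leaving out each library. The tests of a difference between effects and the ratios to fibroblast markers were added after seeing the data. The scripts were tested on simulated data.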

Additional observations from a re-analysis of the deposited data

Results flagged for a closer look

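In 6 cases the effects of 2 manipulations on an SLRP gene differed in a direct test. Between the hairpins, which share ctrl sh as control, *Optc* was 2.35 and *Bgn* 0.38 higher on the log2 scale with *Lrp2* sh2 than with *Lrp2* sh1, *Lum* was 0.40 higher, and *Omd* differed by -0.41, each with all 3 *Lrp2* sh2 libraries on 1 side of all 3 *Lrp2* sh1 libraries. In the 18 libraries fitted together, the effect of nSREBP2 over GFP exceeded that of *Lrp2* sh1 over ctrl sh by 0.83 ± 0.15 for *Bgn* (adjusted *P* 0.00239) and by 0.79 ± 0.16 for *Lum* (adjusted *P* 0.00455), against 9.75% of 19744 genes past this test. Against the effect of *Lrp2* sh2, where 5.63% of genes passed, no SLRP gene passed, and the differences were 0.46 for *Bgn* (adjusted *P* 0.098) and 0.39 for *Lum* (adjusted *P* 0.177). The 3 nSREBP2 libraries and 2 of the *Lrp2* sh2 libraries had counts of Y-linked genes and the *Lrp2* sh1 and GFP libraries nearly none, and with sex as a term *Bgn* and *Lum* still passed between the hairpins, while *Optc* (3.48, adjusted *P* 0.112) and *Omd* (-0.33, adjusted *P* 0.272) did not. *Optc* also did not pass between the hairpins in the fit of 18 libraries (adjusted *P* 0.184), nor did *Omd* (0.0613). The part of sex in the differences between the effects of nSREBP2 and the hairpins was not tested.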

How the results depend on the processing

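Of the values of single SLRP genes under the alternatives, 769 kept direction and side of the threshold, 34 lost and 13 gained a call, and 54 changed sign. *Bgn*, *Lum* and *Fmod* with nSREBP2 and *Bgn* with *Lrp2* sh2 passed under every alternative run except the absolute log2FC above 1. The number past the test with nSREBP2 (5) was 3 with sex as a term and 0 with an absolute log2FC above 1. With *Lrp2* sh1 (0) it was 2 against uninjected eyes. With *Lrp2* sh2 (4) it was 2 with sex as a term and 1 with an absolute log2FC above 1, and between the hairpins (4) it was 2 in the fit of 18 libraries, 2 with sex as a term and 1 with an absolute log2FC above 1. For ctrl sh against uninjected (1) it was 2 without a filter, 2 in the fit of 18 libraries and 2 with sex as a term. Leaving out 1 library gave 4 to 6 with nSREBP2, 0 to 1 with *Lrp2* sh1, 2 to 5 with *Lrp2* sh2, 3 to 4 between the hairpins and 0 to 1 for both control vectors. *Optc* with nSREBP2 passed without a filter (adjusted *P* 0.00191). The causes were not tested.

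Replicate numbers did not pair the samples (*r* of deviations of same-numbered libraries -0.259 to 0.265). With the replicate block the counts were 6 with nSREBP2, 0 with *Lrp2* sh1, 3 with *Lrp2* sh2, 1 for GFP, 0 for ctrl sh and 4 between the hairpins. Signs turned with the block for *Dcn* with *Lrp2* sh1 (0.016) and *Aspn* with GFP (0.011).

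The other sign changes were of log2FC that had not passed, except *Optc* with *Lrp2* sh2. Against uninjected eyes *Dcn* (0.064) and *Prelp* (-0.067) turned with *Lrp2* sh1, and *Fmod* (0.31), *Prelp* (-0.13), *Ogn* (0.033) and *Optc* (-0.17) with *Lrp2* sh2. With library totals *Fmod* with *Lrp2* sh1 was -0.019. With sex as a term *Fmod* with *Lrp2* sh2 was 0.024, *Prelp* with GFP -0.079, and between the hairpins *Fmod* was 0.0011, *Prelp* 0.13 and *Kera* 0.12. Without a filter *Prelp* with *Lrp2* sh2 was -0.0030 and *Aspn* with GFP 0.00067, and with DESeq2 the latter was 0.0058.

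Leaving out 1 library turned the sign of 21 log2FC, none of which had passed. With *Lrp2* sh1, *Dcn* ranged over -0.19 to 0.10, *Aspn* -0.056 to 0.11, *Lum* -0.085 to 0.17, *Fmod* -0.18 to 0.24, *Prelp* -0.10 to 0.15, *Kera* -0.16 to 0.60 and *Optc* -0.54 to 0.41. With *Lrp2* sh2, *Dcn* ranged over -0.12 to 0.18, *Fmod* -0.39 to 0.026, *Prelp* -0.13 to 0.11, *Kera* -0.18 to 0.51 and *Ogn* -0.18 to 0.063. For GFP, *Aspn* ranged over -0.13 to 0.19, *Prelp* -0.062 to 0.11 and *Optc* -0.10 to 3.81. For ctrl sh, *Dcn* ranged over -0.037 to 0.25, *Aspn* -0.15 to 0.17, *Ogn* -0.031 to 0.21 and *Optc* -2.99 to 0.19. Between the hairpins, *Prelp* ranged over -0.20 to 0.10 and *Kera* -0.29 to 0.31.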

Other observations

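Of the markers of tendon and cartilage, 3 of 8 rose and 2 fell with nSREBP2 (median log2FC 0.50), and their sum was 843 to 997 CPM against 588 to 683 CPM with GFP. With *Lrp2* sh1 2 rose and 1 fell, and with *Lrp2* sh2 1 rose and 2 fell, with sums of 766 to 924 and 504 to 600 CPM against 554 to 727 CPM with ctrl sh. Muscle markers stayed at 10.5 to 57.7 CPM in sum over the 18 libraries, and 1 of the 5 tested was lower with nSREBP2. Melanocyte markers fell in 2 of 5 genes with nSREBP2 and in 3 of 5 with *Lrp2* sh2. Blood markers fell in 5 of 5 with *Lrp2* sh2, at 349 to 438 CPM in sum against 632 to 804 CPM. RPE markers rose in 2 and fell in 3 of 10 with nSREBP2, fell in 5 of 10 with *Lrp2* sh2 and in 1 of 10 with *Lrp2* sh1. Of 7 markers of the ciliary body and vitreous matrix, 1 fell with nSREBP2 and 1 with *Lrp2* sh2. Rod markers rose in 1 of 10 with nSREBP2, and 3 of the 4 tested cornea markers rose. For these counts, 12.6% of all genes were higher and 8.47% lower with nSREBP2, and 8.59% and 9.48% with *Lrp2* sh2. With *Lrp2* sh1, 5.33% of all genes passed in either direction.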
